A study of Homo sapiens with 8 samples.

Results

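The genes of the Polycomb repressive complexes described here are 10 genes: EZH1, EZH2, SUZ12, EED, RBBP4, RBBP7 and JARID2 of Polycomb repressive complex 2 (PRC2), and BMI1, RING1 and RNF2 of Polycomb repressive complex 1 (PRC1). They were taken as every probe, controls aside, that carries one of these gene names on the array, which gave 15 of 34127 gene probes and 10 of 27274 gene names. The study asked what the loss of HOXB7, a homeobox gene of the HOX-B cluster, does to pancreatic cancer cells. RNA was read on Agilent arrays of 1 color from MIA PaCa-2 cells, which come from a primary tumor of the pancreas, and Capan-1 cells, which come from a liver metastasis. In each line, 2 arrays held RNA of cells given 10 nM HOXB7 siRNA for 48 hours (a Dicer-substrate kit with a lipid reagent), and 2 held RNA of parental cells, labelled as controls. Whether the parental cells received the lipid reagent is not stated. No array was of cells given a scrambled siRNA, so the effect of HOXB7 loss and that of transfection cannot be told apart. Each line lay on 1 slide of its own, with its siRNA arrays at positions 1 and 2 and its parental arrays at positions 3 and 4. Slide and cell line, and position and treatment, therefore cannot be told apart either. MIA PaCa-2 cells were kept in RPMI medium and Capan-1 cells in IMDM medium with more serum, so medium and line cannot be told apart. For plating before transfection the study names RPMI, and whether this held for Capan-1 and for parental cells is not stated. Nothing in the labels says that the 2 arrays of a group came from separate cultures, so the p-values measure the spread between these arrays, which may be technical.

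PRC2 places methyl groups on lysine 27 of histone H3 and PRC1 places ubiquitin on histone H2A, and both marks accompany gene silencing. The HOX clusters are their best-known targets, held silent by Polycomb proteins outside the body regions where each HOX gene is used. In many carcinomas, including those of the pancreas, EZH2 and BMI1 are studied as genes that favor proliferation and silence tumor suppressors.

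The level of a probe is given here as the log2 of its intensity relative to the 75th percentile of the gene probes on the same array, so 0 is the 75th percentile and a difference of 1 is a 2-fold difference. Levels of different probes are not set against each other, because probes differ in how well they bind. Between 69.2% and 74.3% of gene spots on an array were well above background. The 2 arrays of a group differed by a median of 0.09 to 0.15 on this log2 scale over 17595 probes. All 10 genes had a probe well above background on both arrays of every group. The cells were checked against lists of cell type markers. In MIA PaCa-2, CDH1 and EPCAM, which define epithelial cells, were not well above background on any of the 4 arrays, and in parental cells 5 of 8 epithelial and ductal markers (KRT7, KRT8, KRT18, MUC1 and SOX9) were. In Capan-1 5 of 8 were well above background on both arrays of each group, CDH1 and EPCAM among them. KRT7, KRT18 and KRT19 were not in that count, but 0 of the 8 were counted as not above background in Capan-1. A marker lacks both counts when a flagged spot leaves no value or when a single array is well above background. The counts of 5 therefore do not make the lines alike. The summed level of the 5 epithelial markers with values on all arrays (linear scale, relative to the 75th percentile) was 3.53 to 3.93 in parental MIA PaCa-2 cells, 2.33 to 3.04 after siRNA and 89.8 to 92.9 in Capan-1. Of the 6 of these markers tested in MIA PaCa-2, MUC1 was lower after siRNA (log2 fold change -0.93 ± 0.10 SE, limma adjusted p = 0.0188), and no marker of the other cell types passed in either line. All 4 leukocyte markers were well above background in every group, with a summed level of 4.15 to 4.32 in parental MIA PaCa-2 cells, 3.31 to 3.90 after siRNA and 0.704 to 0.852 in Capan-1. The summed level of 4 fibroblast markers was 14.7 to 16.0 in MIA PaCa-2 against 0.113 to 0.148 in Capan-1, and that of 5 acinar and islet markers was at most 0.270 in the first and at least 7.81 in the second. The sums do not speak for every marker. Between the parental lines, 1 of 3 fibroblast markers tested was lower in MIA PaCa-2 and 1 higher (log2 differences -1.09 to 9.73). Of 4 leukocyte markers, 2 were lower and 2 higher (-1.41 to 4.22). Of 4 acinar and islet markers, 3 were lower and 0 higher (-8.68 to -0.39), and PRSS1 had a mean level of 2.92 in parental Capan-1 cells. The part of these markers in the results was not tested.

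The targeted gene was lower after siRNA in both lines. HOXB7 stood at -4.74 and -4.02 in parental MIA PaCa-2 cells and at -7.71 and -7.71 after siRNA, where it was not well above background. It was at least 2.88-fold lower after siRNA (fitted log2 fold change -3.33 ± 0.26 SE, limma adjusted p = 0.0128). In Capan-1 HOXB7 stood at -2.43 and -2.28 in parental cells and at -5.20 and -4.74 after siRNA, a log2 fold change of -2.62 ± 0.26 SE that did not pass after adjustment (adjusted p = 0.106). The arrays of both treatments did not overlap in either line. With normexp background correction the MIA PaCa-2 value shrank to -0.11 (adjusted p = 0.551), and with the replicate block its adjusted p was 0.125.

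RBBP4 was measured by 4 probes, BMI1 and RNF2 by 2 each and the remaining genes by 1. RBBP7 and SUZ12 lay on 10 spots each, which differed within an array by an SD of 0.039 to 0.084. Below, the brightest probe of a gene is its brightest with a value on all 8 arrays. For RBBP4 this is A_23_P326691, although A_33_P3338559, which has values on 7 arrays, was brighter. One RBBP4 probe (A_33_P3232562) had outlier flags on 5 of 8 arrays and A_33_P3338559 on 1. The second BMI1 probe (A_24_P303989) was flagged on 2 Capan-1 arrays and lay well above background on both arrays of no group, so it was tested in no comparison. Probe sequences are shown where the results turn on a transcript read by more than 1 probe, or on the partner of such a gene, and each is written 5′ to 3′ in lower case with no base marked. Coordinates are those of the array annotation on hg18. No gene model of that build was used here, so exons and untranslated regions are not given. The BMI1 probe covers 409 bases of the genome with 60 bases of sequence, that is, it joins separate blocks.

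BMI1 A_24_P303989 (chr10:22657593-22658001, plus strand): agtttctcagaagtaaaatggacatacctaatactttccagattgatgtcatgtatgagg
RNF2 A_23_P85543 (chr1:183335654-183335713, plus strand): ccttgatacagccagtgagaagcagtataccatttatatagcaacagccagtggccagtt
RING1 A_24_P200694 (chr6:33288091-33288150, plus strand): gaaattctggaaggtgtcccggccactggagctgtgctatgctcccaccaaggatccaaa

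The brightest BMI1 probe lies at chr10:22659583-22659642, the EZH2 probe at chr7:148135438-148135497 on the minus strand and the second RNF2 probe at chr1:183337747-183337806.

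In MIA PaCa-2, none of the 10 Polycomb genes passed the test after HOXB7 siRNA. Over all genes tested, 3.39% passed (635 of 18751 genes). The brightest probes of the 10 genes ranged from -0.33 to 0.11 on the log2 scale with a median of -0.08, against a median of 0.00 over all genes, and 7 of 10 were below 0. All 10 were below 0 with no scaling and with spike-in scaling, where the median of all probes was itself -0.20 and -0.11. Of the 10, 1 had an unadjusted p under 0.05 in limma, against 21.7% of all genes. An interval rule after the study's methods, applied to single probes, called 0, against 0.528% of all probes. The groups did not overlap for 4 of the 10 genes, 3 lower and 1 higher after siRNA, against 52.2% of all genes (25.8% lower and 26.4% higher).

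EZH2, the main methyltransferase of PRC2 in dividing cells, had the smallest p of the 10 genes. It stood at 1.37 and 1.45 in parental MIA PaCa-2 cells and at 1.11 and 1.05 after siRNA. Both arrays of treated cells were thus below the parental pair. The log2 fold change was -0.33 ± 0.09 SE (95% interval -0.55 to -0.11), and after adjustment it did not pass (limma adjusted p = 0.111). The interval allows at most a 1.47-fold decrease. Over 19 alternatives the change ran from -0.53 to -0.26 and the adjusted p from 0.0533 to 0.538, and it passed in none. EZH1, the second methyltransferase, had a log2 fold change of -0.15 ± 0.12 SE (adjusted p = 0.546) and its groups overlapped.

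The other core subunits of PRC2 did not pass in MIA PaCa-2 either. SUZ12 and EED, which hold the enzyme in its active form, had log2 fold changes of 0.08 ± 0.09 SE and -0.10 ± 0.10 SE, and in both the groups overlapped. RBBP7, one of a pair of histone-binding subunits, had a log2 fold change of -0.09 ± 0.08 SE. RBBP4, the other of that pair, had -0.16 ± 0.13 SE at A_23_P326691. The brighter probe gave -0.25 and another -0.02, each from 3 arrays, the last probe gave -0.34, and none passed (adjusted p 0.311 to 0.955). JARID2, an accessory subunit that helps bring PRC2 to its targets, had a log2 fold change of 0.11 ± 0.08 SE. The intervals of these genes bound the change: for RBBP7 it was at most 1.22-fold down and for SUZ12 at most 1.24-fold up.

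Of the PRC1 genes, RNF2, the more widely used of its ubiquitin ligases, was read by a pair of probes that gave different sizes in MIA PaCa-2. The second probe stood at -2.15 and -1.89 in parental cells and at -1.65 and -1.65 after siRNA, with no overlap. Its log2 fold change was 0.37 ± 0.14 SE (limma adjusted p = 0.208). The brightest probe, whose sequence is printed above, gave 0.05 ± 0.21 SE and its groups overlapped. RING1, the other ligase, had a log2 fold change of -0.06 ± 0.08 SE. BMI1, which binds these ligases and raises their activity, had -0.04 ± 0.16 SE, with an interval from -0.43 to 0.36.

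**Figure D1:**
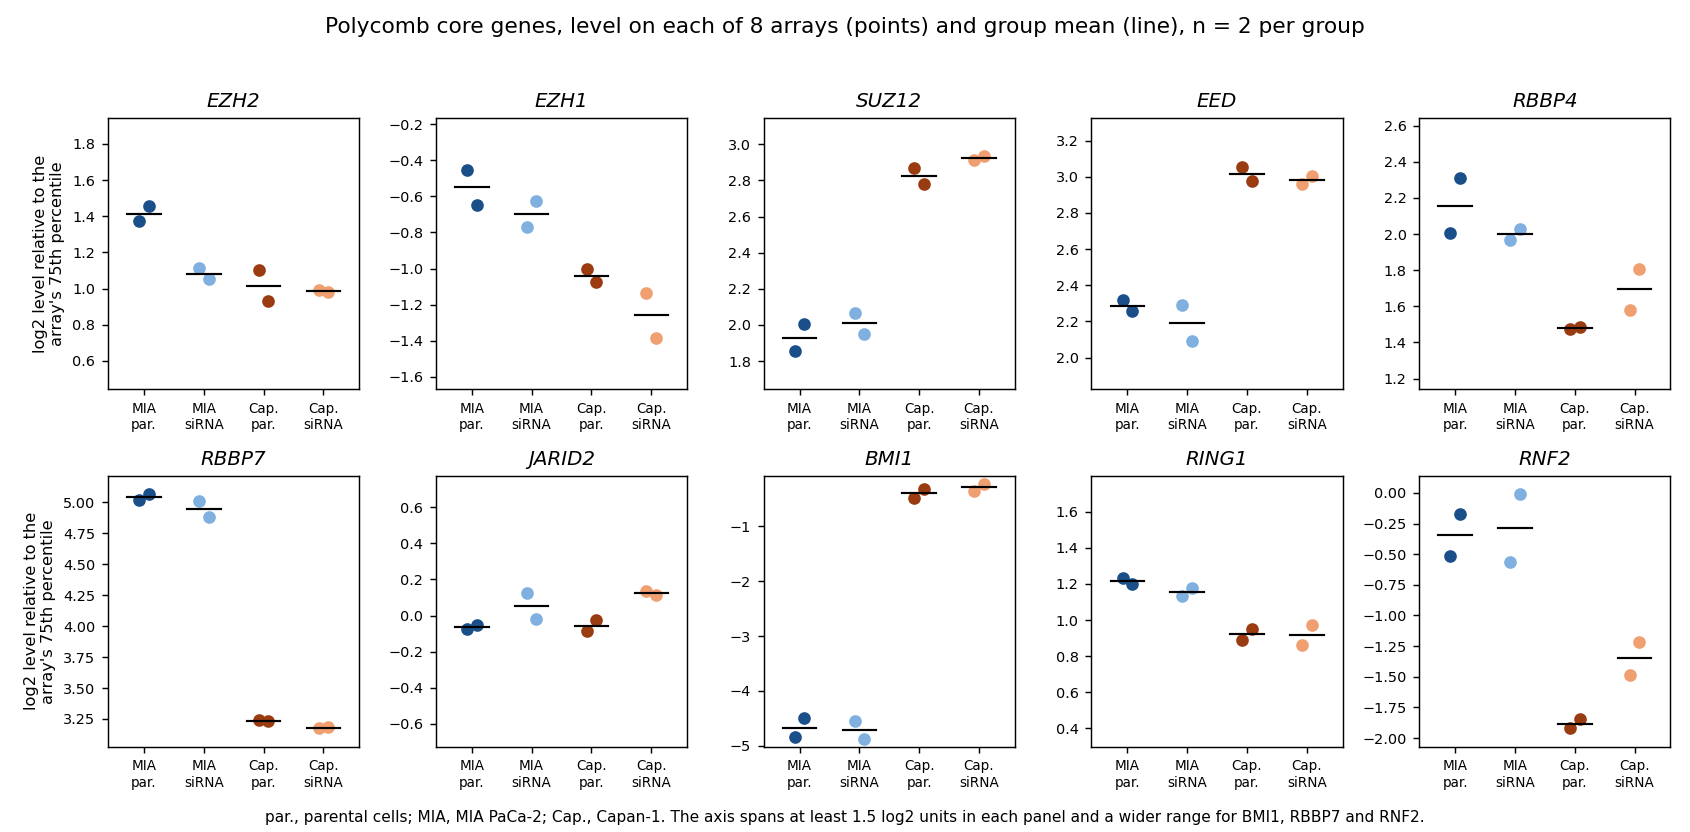
Level of each of the 10 Polycomb genes (brightest probe, log2 relative to the 75th percentile of the array) on 8 arrays, with MIA PaCa-2 in blue and Capan-1 in orange and each group's mean as a line. BMI1 lies between -4.87 and -4.50 on the 4 MIA PaCa-2 arrays and between -0.48 and -0.23 on the 4 Capan-1 arrays, and the siRNA and parental arrays of a line lie close together for most genes.

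In Capan-1, none of the 10 genes passed the test, while 0.0108% of all genes did (2 of 18515). At an unadjusted p under 0.05 in limma, 1628 of 22797 probes had lower and 1411 higher values. The brightest probes of the 10 genes ranged from -0.22 to 0.53 with a median of 0.05, and 5 lay on each side of 0, but 9 lay below 0 with spike-in scaling, which moved the median of all probes to -0.40. The groups did not overlap for 6 of 10 genes, 2 lower and 4 higher after siRNA, against 54.3% of all genes (27.9% lower and 26.4% higher), and 1 of 10 had an unadjusted p under 0.05, against 13.2% of all genes. The interval rule called 0 of the 10, against 1.94% of all probes.

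That gene was RNF2. Its brightest probe stood at -1.92 and -1.84 in parental Capan-1 cells and at -1.48 and -1.22 after siRNA, with both siRNA arrays above both parental arrays. The log2 fold change was 0.53 ± 0.21 SE (95% interval 0.01 to 1.05, limma adjusted p = 0.366). The second RNF2 probe gave 0.18 ± 0.14 SE with overlapping groups. JARID2 had a log2 fold change of 0.18 ± 0.08 SE (adjusted p = 0.414) and EZH1 one of -0.22 ± 0.12 SE (adjusted p = 0.480), both without overlap.

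EZH2 in Capan-1 stood at 1.10 and 0.93 in parental cells and at 0.99 and 0.98 after siRNA. The siRNA arrays lay between the parental arrays, and the log2 fold change was -0.03 ± 0.09 SE (95% interval -0.25 to 0.19). BMI1 had a log2 fold change of 0.11 ± 0.16 SE, SUZ12 of 0.10 ± 0.09 SE and EED of -0.03 ± 0.10 SE. RBBP7 had -0.06 ± 0.08 SE and RING1 -0.00 ± 0.08 SE. The RBBP4 probes disagreed in direction, with 0.22 ± 0.13 SE at A_23_P326691, -0.15 at the brighter probe and -0.34 at the other that could be tested. None of these passed.

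**Figure D2:**
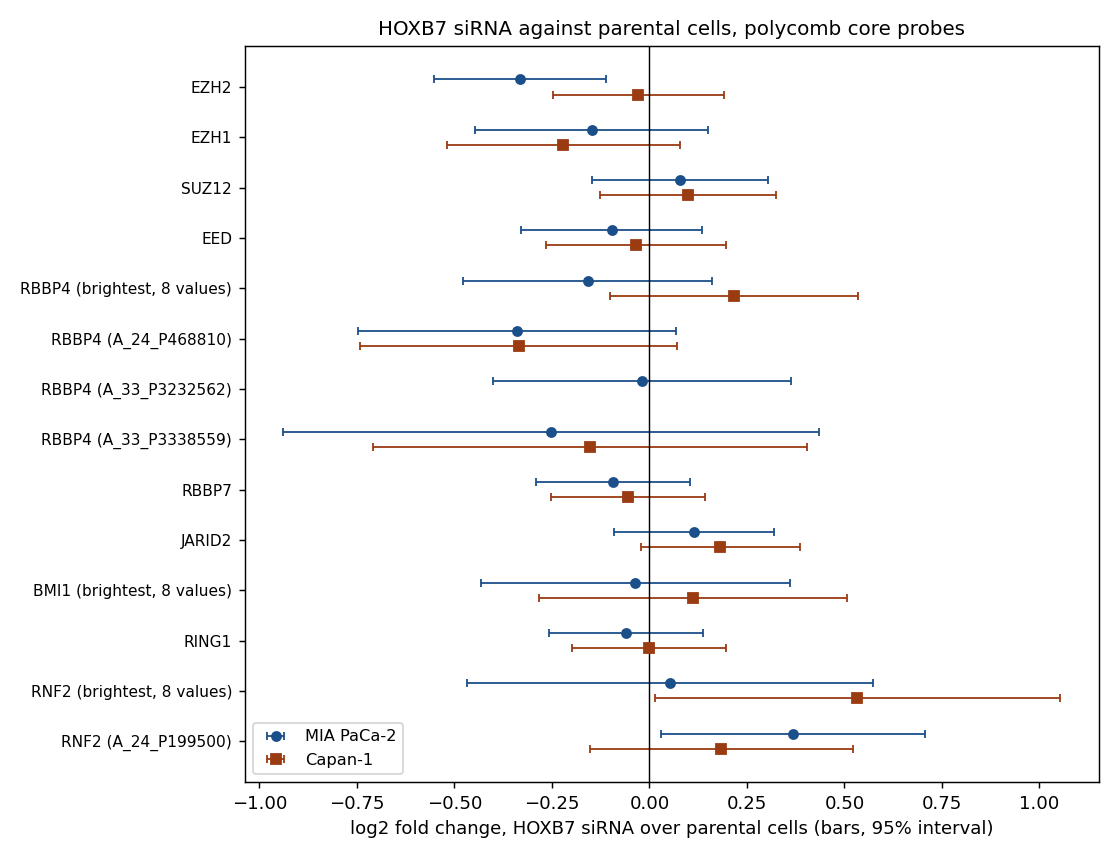
Log2 fold change of HOXB7 siRNA over parental cells for each tested probe of the Polycomb genes, MIA PaCa-2 as blue circles and Capan-1 as brown squares, with 95% intervals from limma. The interval leaves out 0 for EZH2 and the second RNF2 probe in MIA PaCa-2 and for the brightest RNF2 probe in Capan-1, and no probe passed after adjustment.

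The siRNA effects were then compared between the lines by their interaction. None of the 10 genes passed, and 0.00995% of all genes did (2 of 20097). None of the 10 had an unadjusted p under 0.05 in limma either, against 11.4% of all genes. For EZH2 the effect in MIA PaCa-2 minus that in Capan-1 was -0.30 ± 0.13 SE on the log2 scale (95% interval -0.62 to 0.02, limma adjusted p = 0.459). At the brightest probes, the effects of RBBP4 differed by -0.37 ± 0.19 SE (adjusted p = 0.518) and those of RNF2 by -0.48 ± 0.31 SE (adjusted p = 0.605). The second RNF2 probe gave 0.18 ± 0.20 SE, in the opposite direction, and the other RBBP4 probes tested gave -0.10 and -0.004. With 2 arrays a group none of these differences passed. The intervals of RBBP4 and RNF2 at the brightest probes reach -0.84 and -1.23.

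The largest differences in the Polycomb genes were between the parental lines. In parental MIA PaCa-2 cells BMI1, SUZ12 and EED were lower than in parental Capan-1 cells (31.4% of all genes), and RBBP7, RNF2, RBBP4, EZH1, EZH2 and RING1 were higher (40.5% of all genes). JARID2 did not pass. Thus 9 of 10 genes passed, but 73.3% of all genes did so too (14385 of 19618), some with probes in both directions, so a difference between these lines was common. The median of the 10 genes was 0.35 on the log2 scale, against 0.11 over all genes.

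BMI1 differed most. Its brightest probe stood at -4.85 and -4.50 in parental MIA PaCa-2 cells and at -0.48 and -0.31 in parental Capan-1 cells. It was 19.4-fold lower in MIA PaCa-2, a log2 difference of -4.28 ± 0.16 SE (95% interval -4.68 to -3.88, limma adjusted p = 3.8e-06). Of all genes, 4.99% differed by at least as much in either direction. The probe across separate blocks, printed above, stood at -5.76 and -5.64 in parental MIA PaCa-2 cells, where 1 of 2 arrays was well above background, and at -2.03 on the unflagged parental Capan-1 array. With flagged spots kept it stood at -2.08 and -1.86 in Capan-1. After siRNA it was not well above background in MIA PaCa-2 (-6.64 and -5.69) and stood at -1.75 in Capan-1. Both probes were thus lower in MIA PaCa-2. With normexp background correction the difference at the brightest probe shrank to -2.10 and still passed.

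SUZ12 and EED were lower in MIA PaCa-2 as well. SUZ12 stood at 1.86 and 2.00 there and at 2.78 and 2.87 in Capan-1, a log2 difference of -0.89 ± 0.09 SE or 1.86-fold (adjusted p = 0.000263). EED stood at 2.32 and 2.26 in MIA PaCa-2 and at 3.06 and 2.97 in Capan-1, a log2 difference of -0.73 ± 0.10 SE or 1.66-fold (adjusted p = 0.000752). Neither group pair overlapped.

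RBBP7 was the gene raised most in MIA PaCa-2. It stood at 5.02 and 5.07 in parental MIA PaCa-2 cells and at 3.23 and 3.24 in parental Capan-1 cells, a log2 difference of 1.81 ± 0.08 SE or 3.50-fold (adjusted p = 7.2e-06). RNF2 was higher by 1.54 ± 0.22 SE on the log2 scale at the brightest probe, or 2.91-fold, and by 0.59 ± 0.14 SE at the second. Both passed, and the probes differed in size. RBBP4 was higher at all 3 probes tested, by 0.68, 0.70 and 1.11 on the log2 scale.

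The methyltransferases and RING1 showed small differences. EZH1 was higher by 0.49 ± 0.12 SE, EZH2 by 0.40 ± 0.09 SE and RING1 by 0.29 ± 0.08 SE (adjusted p 0.0126, 0.00842 and 0.0182). JARID2 stood at -0.08 and -0.05 in MIA PaCa-2 and at -0.09 and -0.03 in Capan-1, a log2 difference of -0.01 ± 0.08 SE whose interval allows at most 1.16-fold. EZH1, EZH2 and RING1 lost the call with no scaling, with the spike-in scaling and without replicate 2 of parental Capan-1, which left 3 genes higher in place of 6. RING1 also lost it without replicate 1 of either parental line, and EZH1 without replicate 1 of parental MIA PaCa-2. BMI1, SUZ12 and EED passed as lower, and RBBP4, RBBP7 and RNF2 as higher, under all 5 scalings, RBBP4 with spike-in scaling only at a dimmer probe. Spike-in scaling moved the median difference of all probes from 0.12 to -0.11 and the share of called probes that were higher in MIA PaCa-2 from 56.3% to 45.0%.

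**Figure D3:**
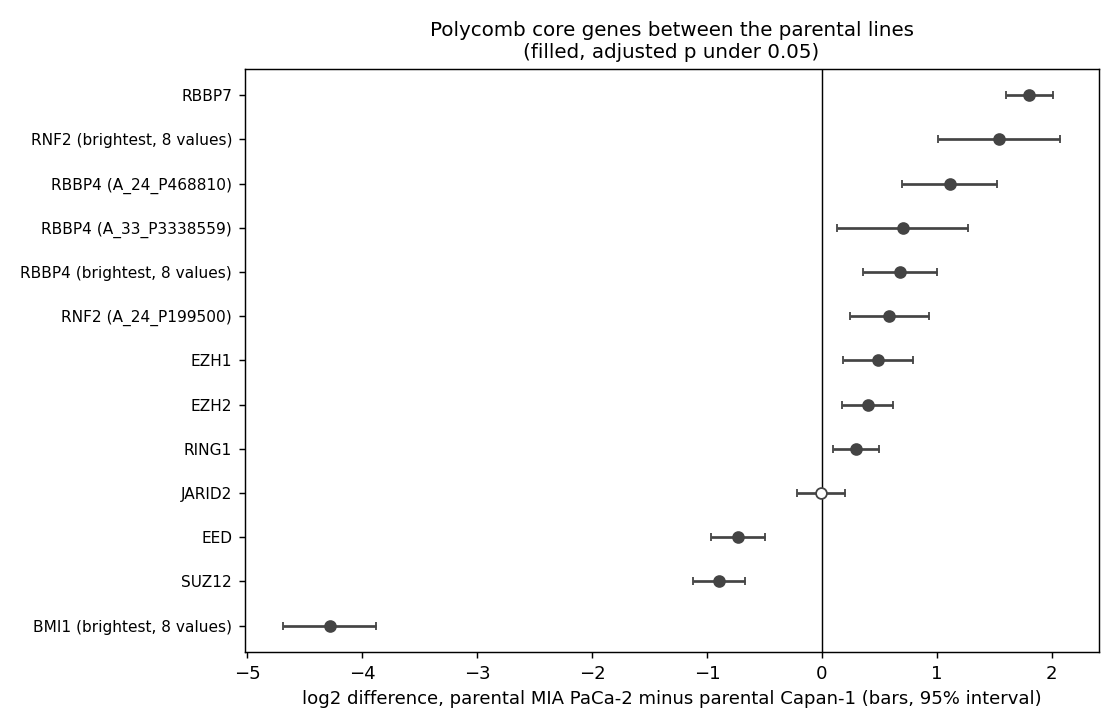
Log2 difference between parental MIA PaCa-2 and parental Capan-1 cells for each tested probe of the Polycomb genes, with 95% intervals from limma and filled symbols for an adjusted p under 0.05. BMI1 lies at -4.28, SUZ12 and EED at -0.89 and -0.73, JARID2 at -0.01 and RBBP7 at 1.81.

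Across the 4 groups, the order of the levels followed the line rather than the treatment for 8 of the 10 genes at their brightest probe: every array of one line lay on the same side of every array of the other. Of all genes, 72.6% did so (13052 of 17978). In BMI1, SUZ12 and EED both Capan-1 groups were highest, and in EZH1, RBBP4, RBBP7, RING1 and RNF2 both MIA PaCa-2 groups were. Within BMI1 and EED, parental and siRNA arrays of each line overlapped. In EZH2 parental MIA PaCa-2 cells were highest, and the siRNA arrays of MIA PaCa-2 overlapped with those of parental Capan-1 cells. In JARID2 the siRNA groups of both lines were highest, and neighbors of the same treatment overlapped.

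The other genes of the Polycomb system were described from lists of their complexes. In MIA PaCa-2, 2 of the 55 genes tested from these 5 lists fell after siRNA and none rose, against 1.82% and 1.56% of all genes. At an unadjusted p under 0.05, 7 had lower and 6 higher values, against 21.7% of all genes in either direction. PCGF5, which takes the place of BMI1 in a variant PRC1, stood at -4.13 and -4.33 in parental cells and at -5.05 and -5.00 after siRNA, a log2 fold change of -0.79 ± 0.11 SE (adjusted p = 0.0293). Its brightest probe gave -0.38 (adjusted p = 0.138). FOXK1, a transcription factor that binds the BAP1 deubiquitinase complex, which removes ubiquitin from histone H2A, had a log2 fold change of -0.52 ± 0.09 SE (adjusted p = 0.0403). The list counts were 0 of 8 accessory subunits of PRC2, 0 of 11 canonical PRC1 subunits, 1 of 15 variant PRC1 subunits, 1 of 8 deubiquitinase genes and 0 of 13 H3K27 demethylase and trithorax genes. Medians of these lists ran from -0.18 to 0.19. The count of 2 fell to 0 with any 1 of the 8 arrays left out, with no scaling, with spike-in scaling, with no filter on dim probes, with the line fitted alone and with the replicate block. With normexp, with an intensity trend and with the filter on all 8 arrays it was 4, and 2 to 3 genes were higher.

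Among genes that did not pass in MIA PaCa-2, the smallest p values of the PRC2 accessory subunits were those of LCOR (0.47, adjusted p = 0.0601) and PHF19 (-0.34, adjusted p = 0.110). Of the canonical PRC1 subunits they were those of PHC1 (0.48, adjusted p = 0.0636) and CBX8 (-0.34, adjusted p = 0.203). Of the trithorax genes, which oppose Polycomb silencing, they were those of ASH2L (-0.39, adjusted p = 0.0721) and WDR5 (0.35, adjusted p = 0.0899), both subunits of the H3K4 methyltransferase complexes.

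In Capan-1, none of the 55 genes tested from these lists passed in limma, 5 had an unadjusted p under 0.05 (3 lower and 2 higher), against 13.2% of all genes, and the interval rule called 1 lower and 1 higher, against 1.94% of all probes. FOXK1 had a log2 fold change of -0.59 ± 0.09 SE (adjusted p = 0.116), and its siRNA arrays lay below its parental arrays in both lines. PCGF5 had -0.08 and 0.04 at its probes. The smallest p values of the remaining lists were those of EZHIP (0.81), LCORL (0.68), SCMH1 (-0.41), SCML1 (0.83), E2F6 (0.30), DCAF7 (-0.30), BAP1 (-0.38), MEN1 (-0.39) and KMT2A (-0.62), with adjusted p from 0.263 to 0.437. The KMT2A value rests on 1 parental array, and its brightest probe gave -0.11. Those of E2F6 and MEN1 also come from dimmer probes. At its brightest probe E2F6 stood at -0.40 and -0.29 in parental cells and at -0.46 and -0.12 after siRNA. MEN1 stood at 0.39 and 0.56 in parental cells and at 0.38 and 0.05 after siRNA at its brightest probe. The medians of the lists ran from -0.12 to 0.18.

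Between the parental lines, 12 of the 56 genes tested from these lists had a lower level in MIA PaCa-2 and 30 a higher one, against 31.4% and 40.5% of all genes. Those with the largest differences were subunits of PRC1 and an H3K27 demethylase. KDM6A, which removes the methyl mark that PRC2 places, was not well above background on any MIA PaCa-2 array and stood at -1.87 and -1.76 in parental Capan-1 cells, at least 17.9-fold lower in MIA PaCa-2 (adjusted p = 1.5e-06). PCGF5 was lower in MIA PaCa-2, with log2 differences of -4.32 at the probe past the threshold above and -1.80 at the brightest. AUTS2, which joins the PCGF5 form of PRC1, differed by -3.41 ± 0.13 SE at its brightest probe, which was well above background on 1 of 2 parental MIA PaCa-2 arrays, and by 1.86 ± 0.38 SE, in the opposite direction, at another. SCML1 was at least 10.6-fold lower in MIA PaCa-2, where it was not well above background. SCML2 was higher in MIA PaCa-2 by 3.05 ± 0.32 SE and was well above background on 1 of 2 parental Capan-1 arrays. PCGF3 was at least 4.24-fold higher, and it was not well above background in Capan-1. The PRC2 accessory subunits LCORL (2.32), AEBP2 (1.55) and PHF19 (1.39) were higher in MIA PaCa-2, as were BCORL1 (2.22) of variant PRC1, OGT (1.18) and FOXK2 (0.87) of the deubiquitinase list and the trithorax gene RBBP5 (2.14 at a dimmer probe, 0.69 at its brightest). CBX7 of canonical PRC1 was higher (1.502) only at a probe that lacks a value on a MIA PaCa-2 siRNA array. Its probe with a value on every array stood at -0.54 and -0.78 in parental MIA PaCa-2 cells. In parental Capan-1 cells that probe stood at -0.46 and -0.59, so the lines overlapped there. CREBBP (-1.57) and, at a dimmer probe, ASXL2 (-0.44) were lower.

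HOX genes are the textbook targets of these complexes, and 24 of 39 were tested in each line. In MIA PaCa-2, 5 of 24, HOXB7 included, fell after siRNA and none rose, against 1.82% and 1.56% of all genes. HOXC8 stood at -1.36 and -1.16 in parental cells and at -2.63 and -2.58 after siRNA, a log2 fold change of -1.35 ± 0.10 SE (adjusted p = 0.0128). HOXB7 was the siRNA target, and the others were HOXA11 (-0.54), HOXA2 (-0.67) and HOXA13 (-0.64), with adjusted p from 0.0400 to 0.0429. The median of the tested HOX genes was -0.17 here and -0.21 in Capan-1. In Capan-1 none of 24 passed, and 8 had an unadjusted p under 0.05, all lower, against 7.2% of all genes in that direction. The 8 include HOXB7, the siRNA target. HOXC8 had a log2 fold change of -0.79 ± 0.10 SE in Capan-1 (adjusted p = 0.106). Between the parental lines HOXB8 differed by 7.55 ± 0.31 SE, higher in MIA PaCa-2. HOXA10 was not well above background in MIA PaCa-2 at 1 of its probes, and the other differed by 0.14 ± 0.19 SE. HOXC9 was at least 13.6-fold lower in parental MIA PaCa-2 cells, where it was not well above background, so its rank is not known, and HOXA11, well above background in both lines, differed by -3.81 ± 0.09 SE. After siRNA the MIA PaCa-2 count of HOX genes fell to 2 to 3 when any 1 of the 8 arrays was left out, to 2 with no scaling or spike-in scaling and to 0 with the replicate block or the line fitted alone. Without siRNA replicate 2 of MIA PaCa-2, 3 HOX genes were higher.

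Other Polycomb targets, proliferation genes and interferon-stimulated genes were set beside the 10 genes. None of 7 other targets passed in MIA PaCa-2 and none of 8 in Capan-1, with CDKN2A at 0.35 and KLF2 at 0.26 in the first and DAB2IP at -0.31 in the second. The CDKN2A value is that of its brightest probe, and its second probe was not well above background on any array. No proliferation gene passed in either line. Their median was -0.11 in MIA PaCa-2, with 13 of 19 below 0, and -0.12 in Capan-1, with 18 of 19 below 0. The smallest p values were those of CCNA2 (-0.22) and PLK1 (-0.53) in the first and of MCM2 (-0.44) and TYMS (-0.22) in the second. The PLK1 value is that of a dimmer probe. At its brightest probe PLK1 stood at 1.77 and 1.39 in parental MIA PaCa-2 cells and at 1.195 and 1.44 after siRNA. The MCM2 value rests on 1 parental Capan-1 array. EZH2 is known as a gene of dividing cells, and the part of proliferation in its values was not tested.

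Of the interferon-stimulated genes, IFI27 (2.07 ± 0.09 SE, adjusted p = 0.00333) and IFI6 (0.81 ± 0.12 SE, adjusted p = 0.0356) rose in MIA PaCa-2, 2 of 18 tested, against 1.56% of all genes. The count was 1 with any 1 array left out, with no scaling and with spike-in scaling, and 0 with the replicate block or the line fitted alone. The median of the 18 genes in MIA PaCa-2 was 0.03, and 8 lay below 0. At an unadjusted p under 0.05 in limma, 2 had lower and 5 higher values, against 21.7% of all genes in either direction. None of 19 passed in Capan-1, where 11 had an unadjusted p under 0.05, all higher, against 5.99% of all genes in that direction, led by RSAD2 (1.73, adjusted p = 0.0830) and IFIT1 (1.22, adjusted p = 0.106). Their part in the Polycomb values was not tested.

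**Figure D4:**
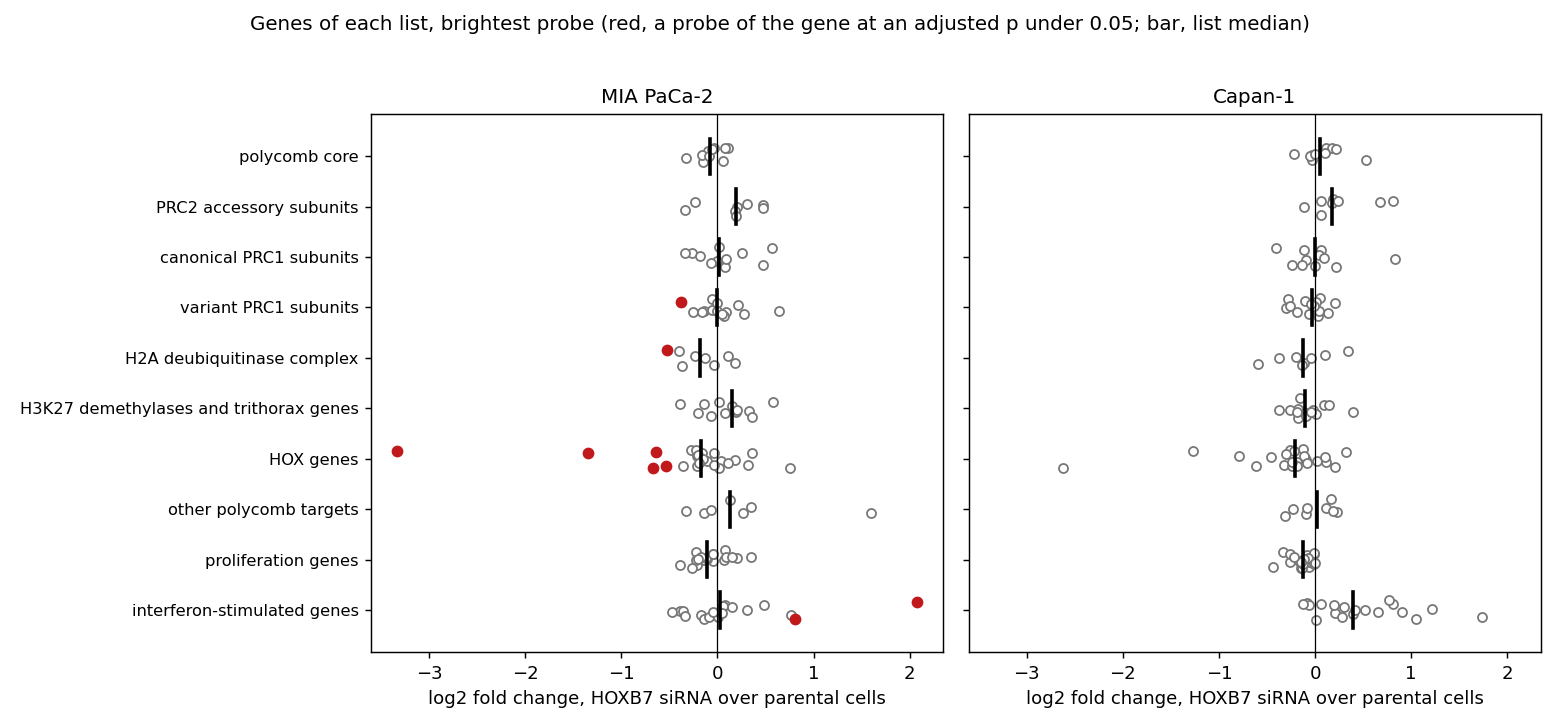
Log2 fold change of HOXB7 siRNA over parental cells for the tested genes of each list at the brightest probe, MIA PaCa-2 on the left and Capan-1 on the right, with the list median as a bar and red points for genes with a probe at an adjusted p under 0.05. Red points appear in MIA PaCa-2 only, for PCGF5, FOXK1, 5 HOX genes, IFI27 and IFI6, and none among the 10 Polycomb genes.

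Genes with the pattern most like EZH2 were sought over the 8 arrays after the mean of each line had been subtracted, among 14690 genes well above background on all arrays. The highest Pearson correlations were those of BEAN (0.996), SLC25A24 (0.988) and INPP5F (0.986). For BMI1 they were an unnamed transcript (probe A_33_P3237270, 0.955), SWAP70 (0.932) and ITCH (0.931). The points share their arrays and the scaling, 8 arrays are few for 14690 genes, and the values are a description.

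The promoters of the 10 genes were described from RefSeq on GRCh38.p14, as the 250 bases before each annotated start, which gave 15 windows for the 10 genes. Their GC content ran from 51.2% to 91.6% with a median of 74.4%, against 58.0% over 35116 windows of all genes, and they held 11 to 54 CG pairs with a median of 34, against 11. The letters TAATTA, a common core of homeodomain binding sequences and its own reverse complement, were in 0 of the 15 windows and in 4.35% of all windows. The E2F-like letters TTTCCCGC, TTTCGCGC, TTTGCCGC and TTTGGCGC, on either strand, were in 2 of the 15, those of EZH1 and SUZ12, and in 2.79% of all. The first BMI1 window is shown because BMI1 differed most between the lines, with each CG pair in capitals. It has 35 CG pairs, and 5.80% of all windows have at least as many.

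BMI1 (chr10:22320849-22321098, GRCh38.p14, plus strand): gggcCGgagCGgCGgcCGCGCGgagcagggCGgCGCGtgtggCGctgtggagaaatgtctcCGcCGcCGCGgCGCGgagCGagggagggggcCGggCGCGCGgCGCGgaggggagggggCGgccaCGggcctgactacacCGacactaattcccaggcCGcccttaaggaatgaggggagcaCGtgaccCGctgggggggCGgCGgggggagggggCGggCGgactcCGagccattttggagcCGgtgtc

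A match is a run of letters in this window and not a binding site, and no methylation or binding was measured on these arrays. In these bulk RNA samples, fewer cells with a transcript and less of it per cell cannot be told apart.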

How the data were processed

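The 8 arrays of MIA PaCa-2 and Capan-1 cells were scanned and read by the authors with Agilent Feature Extraction 9.5.3, per the labels. They deposited, for every spot, the background-subtracted and detrended intensity, which is not scaled between arrays, with outlier flags and background calls, and a log2 table that equals the log2 of this intensity. The number of arrays limits the precision.

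The 10 genes and all gene lists were chosen with earlier results of these data known. Here log2 intensities of the unflagged spots of a probe were averaged, and each array's 75th percentile over gene probes was subtracted. Probes entered a comparison when both arrays of 1 of its groups were well above background, which was required of at least 50% of the unflagged spots. The means of the 4 groups were fitted on all 8 arrays with limma 3.58.1 in R 4.3.3 (moderated test, two-sided, Benjamini-Hochberg adjustment over all tested probes, threshold 0.05). A gene was called by any probe that passed, and lower or higher if no other probe passed the opposite way. An exact permutation test of 2 against 2 arrays cannot go below p = 0.33 and was not used. A group that was not well above background on either array has only a bound, computed against the lowest signal well above background. Named outside the 10 genes are HOXB7, list genes past the threshold in a siRNA comparison (at most 4 a list and line by adjusted p and HOXA13 beyond them), otherwise the 2 with the smallest p, and the 3 largest differences a list between parental lines. PCGF3, HOXA11 and MUC1 were named after their values were seen. One gene that this rule names is not reported here. The marker lists also covered mesenchymal cells (2 of 4 markers well above background in parental MIA PaCa-2 and 4 of 4 in parental Capan-1 cells), endothelial cells (2 of 3 in each), fibroblasts (2 of 4 and 1 of 4), and acinar and islet cells (3 of 5 and 4 of 5). Of the mesenchymal markers in MIA PaCa-2, FN1 was counted as not above background and VIM had neither count, so these shares do not rank the lines. The fit was tested on simulated data. No probe was named beyond the annotation in the files, except list genes matched through older symbols or accessions in RefSeq.

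The alternatives were normexp background correction (offset 50), quantile normalization, no scaling, scaling to the spike-in probes, outlier spots kept, the log2 table, other filters on dim probes, each line alone, the replicate block, an intensity trend, each array left out, and the interval rule of the study's methods. That rule called a probe when both siRNA to parental ratios lay on the same side outside the interval holding 99% of the ratios of the parental pair, in a window of 1001 probes set here. The study also set conditions on a gene's number of probes, their signal and their agreement in direction. These were not applied here, so the calls are not those of the study.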

Additional observations from a re-analysis of the deposited data

How the results depend on the processing

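With 2 arrays a group, small changes in the 10 Polycomb genes are beyond these data. The intervals given with the genes measure the spread between these arrays under the scaling reported, and they do not bound what could be missed. In Capan-1 the alternatives reached -0.42 for EZH2, -0.43 for EED and -0.45 for RBBP7. The lower ends of their intervals were -0.25, -0.26 and -0.25. In each leave-one-out fit the lone array was assumed to vary like the other groups. None of the 10 genes passed in a siRNA comparison or in the difference between the lines under any alternative, 3 were lower between the parental lines under all 18 alternatives, and 3 to 6 were higher. The interval rule was run for the siRNA comparisons only. The cause of each change below was not tested, except that the fits of 1 line and those without an array use fewer arrays. In all, 1186 values kept their side of the threshold and direction, or stayed within 1.5 times for a count, 45 changed sign, and 97 crossed the threshold or moved.

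The labels do not say whether replicate numbers pair the arrays. The deviations of same-numbered arrays from their group means correlated at 0.0315 (MIA PaCa-2) and 0.0453 (Capan-1) over 17595 probes. Values this low show little shared deviation, but they cannot show whether same-numbered arrays shared a culture or batch. With the replicate block, HOXB7 in MIA PaCa-2 stayed at -3.33 but did not pass (adjusted p = 0.125), and the counts of other Polycomb and trithorax genes lower, HOX genes lower and interferon-stimulated genes higher in MIA PaCa-2 went from 2, 5 and 2 to 0, 0 and 0. With MIA PaCa-2 fitted alone they were also 0, 0 and 0, and HOXB7 at -3.33 did not pass (adjusted p = 0.121).

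In MIA PaCa-2, other Polycomb and trithorax genes lower numbered 4 with normexp, 0 with no scaling, 0 with spike-in scaling, 4 when all 8 arrays had to be well above background, 0 with no filter, 4 with an intensity trend, 0 by the interval rule and 0 to 0 with any array left out. Those higher, 0 in the fit reported, numbered 2 with normexp, 2 when all 8 arrays had to be well above background and 3 with the trend. HOX genes lower numbered 1 with normexp, 2 with no scaling, 2 with spike-in scaling, 2 with no filter, 1 by the interval rule and 2 to 3 with an array left out, and HOX genes higher 0 to 3 with an array left out (3 without siRNA replicate 2). Other targets higher numbered 1 with normexp and 0 to 1 with an array left out (1 without parental replicate 1). Interferon-stimulated genes higher numbered 1 with no scaling, with spike-in scaling, with no filter and with any array left out (1 to 1). Those lower numbered 1 with normexp, 1 when all 8 arrays had to be above background and 2 with the trend. HOXB7 was -0.11 with normexp (adjusted p = 0.551).

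In Capan-1, where each of these counts was 0, other Polycomb and trithorax genes lower numbered 1 with normexp, with the trend and by the interval rule and 0 to 1 with an array left out (1 without parental replicate 1), and 1 was higher by the interval rule. HOX genes lower numbered 1 with normexp, with no scaling, with spike-in scaling and with the trend, 3 by the interval rule and 0 to 1 with an array left out (1 without siRNA replicate 2). Interferon-stimulated genes higher numbered 5 with normexp, 2 with quantile normalization, 1 with no scaling, with spike-in scaling and when all 8 arrays had to be well above background, 5 with the trend, 6 by the interval rule and 0 to 1 with an array left out (1 without siRNA replicate 2). HOXB7 passed at -0.66 with normexp (adjusted p = 0.0404), -2.77 with no scaling (0.00377), -3.01 with spike-in scaling (0.000613), -2.62 with the trend (0.0314) and without siRNA replicate 2, in a leave-one-out range of -2.85 to -2.39.

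No value that changed sign passed in either direction. With normexp, BMI1 (0.14) and RNF2 (-0.077) changed sign in MIA PaCa-2, EZH2 (0.0279) and RING1 (0.0289) in Capan-1, and BMI1 (0.0533) in the difference of the effects. With no scaling, SUZ12 (-0.12), RNF2 (-0.15) and JARID2 (-0.0874) did so in MIA PaCa-2, SUZ12 (-0.0545) and BMI1 (-0.0413) in Capan-1 and JARID2 (0.0058) between the parental lines. With spike-in scaling, SUZ12 (-0.0375), RNF2 (-0.0637) and JARID2 (-0.0022) did so in MIA PaCa-2, SUZ12 (-0.29), RBBP4 (-0.18), BMI1 (-0.28) and JARID2 (-0.21) in Capan-1, and SUZ12 (0.26), EED (0.21), RBBP7 (0.24), BMI1 (0.13), RING1 (0.22) and JARID2 (0.21) in the difference. With an array left out, the range crossed 0 in MIA PaCa-2 for EED (-0.19 to 0.0008), BMI1 (-0.21 to 0.14) and RNF2 (-0.22 to 0.33), in Capan-1 for EZH2 (-0.11 to 0.0562), EED (-0.0736 to 0.0068) and RING1 (-0.0567 to 0.0536), in the difference for EZH1 (-0.0504 to 0.20), SUZ12 (-0.0938 to 0.0538), EED (-0.16 to 0.0342), RBBP7 (-0.10 to 0.0282), BMI1 (-0.32 to 0.0256) and JARID2 (-0.14 to 0.0052), and between the parental lines for JARID2 (-0.0379 to 0.0227).

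Between the parental lines, 3 of the 10 genes were higher in place of 6 with no scaling, 3 with spike-in scaling, and 3 to 6 with an array left out (3 without Capan-1 parental replicate 2). EZH1, EZH2 and RING1 stood at 0.50, 0.41 and 0.31 with no scaling and did not pass, and at 0.26, 0.16 and 0.06 with spike-in scaling. RBBP4 stood at 0.44 with spike-in scaling and did not pass at its brightest probe.

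Probes called in MIA PaCa-2 numbered 353 lower and 304 higher, against 65 and 14 with no scaling, 30 and 17 with spike-in scaling, 586 and 449 with normexp and 447 and 270 with quantile normalization. The median of all probes in the siRNA comparisons with no scaling was -0.20 for MIA PaCa-2 and -0.16 for Capan-1, and with spike-in scaling -0.11 and -0.40. Relative to it, the median of the 10 genes over the 5 scalings was -0.14 to -0.08 for MIA PaCa-2 and -0.01 to 0.06 for Capan-1, and that of the HOX genes from -0.18 to -0.13 and from -0.22 to -0.13.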
